A study of Homo sapiens with 5 samples.

Results

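The 32 genes described here are the core transcripts of the ATF4 integrated stress response. They comprise 8 transcription factors, 6 regulators or feedback proteins, 3 secreted proteins, 5 enzymes of serine and one-carbon synthesis, 5 enzymes of asparagine, proline and other amino acids, 3 enzymes of cysteine and glutathione metabolism, a lipoprotein receptor and a tRNA exporter. They were taken by gene name from a count table of 57992 genes. Each name matched a single entry, and all 32 were among the 34658 genes that passed the filter on low counts. The lowest read count of any member in any library was 183, so none passed only through a group in which it was high.

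The integrated stress response starts with kinases that sense different stresses and phosphorylate the initiation factor eIF2 on its alpha subunit. General protein synthesis then slows, while the mRNA of ATF4 is translated more efficiently. ATF4 is a leucine zipper activator that pairs with C/EBP proteins and induces genes for amino acid synthesis, tRNA charging, amino acid uptake and redox control. Prolonged signalling also induces CHOP, which is encoded by DDIT3, and the feedback proteins TRIB3 and GADD34. Because ATF4 is controlled largely at translation, its mRNA level is an incomplete measure of its activity.

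Poly(A) RNA was sequenced from Ishikawa cells, a long-used human cell line from an endometrioid tumour of the uterus. In 2 libraries, called EX527 co-culture here, the cells shared medium with differentiated adipocytes in a transwell and were also exposed to EX527, which blocks the deacetylase SIRT1 and whose dose the labels do not give. In 2 further libraries, called co-culture, the cells were kept with adipocytes across the same kind of membrane (pores of 0.4 µm, 3 days) with no inhibitor named. The last library, monoculture, came from cells grown without adipocytes, so this group has n = 1. The labels give no culture days and no membrane for it. In differences from monoculture, adipocytes therefore cannot be told apart from culture time, membrane or library preparation. The adipocytes had been differentiated from preadipocytes with insulin, dexamethasone and IBMX, and the labels do not name their source. No library of monoculture with EX527 was analysed here, so an action of EX527 on the adipocytes cannot be told apart from one on the cancer cells. The labels do not say that replicates were separate cultures, so the spread behind each p-value is that between these libraries and may be technical.

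Libraries held 45653845 to 52269963 counted reads, at which 3 reads correspond to 0.0574 to 0.0657 CPM, the reads of a gene scaled to a common library total. Replicates differed to unequal degrees. Among 11232 well-read genes (mean log2 CPM from 4 upward), log2 values of replicates differed with an SD of 0.605 in EX527 co-culture and 0.112 in co-culture. EX527 co-culture replicate 1 also had 33325 genes with 10 reads or more, against 26022 to 27103 in the other libraries, and 2.66% of its reads lay in lincRNA genes, against 1.36% to 1.49%. Counts and the leading values are therefore also given without it. SIRT1 itself had 26.2 and 29.7 CPM in EX527 co-culture, 30.3 and 32.9 CPM in co-culture and 42.7 CPM in monoculture. Summed over 12 markers of endometrial epithelium, levels were 1535 and 2651 CPM in EX527 co-culture, 6940 and 6326 CPM in co-culture and 2562 CPM in monoculture, with no marker at 0 reads in any library. The 12 adipocyte markers summed to 123 and 175 CPM in EX527 co-culture, 164 and 155 CPM in co-culture and 205 CPM in monoculture, none of them at 0 reads. The adipocyte sum came largely from LPL and PNPLA2, and ADIPOQ stayed between 0.0205 and 0.90 CPM. For 11 markers of fibroblasts and preadipocytes the sums were 130 and 311 CPM in EX527 co-culture, 165 and 153 CPM in co-culture and 236 CPM in monoculture, with 0 to 2 of them at 0 reads in a library. The part of these cell markers in the results below was not tested. In bulk RNA, fewer cells of a type and less RNA per cell cannot be told apart.

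ATF4 and its C/EBP partners bind the C/EBP-ATF response element, whose core is TGATGNAA. RefSeq promoter windows (GRCh38.p14, 250 bases before to 50 after a start site) were at hand for 25 of the 32 members, with 43 windows between them. The core was present on either strand in at least 1 window of 6 of those 25 members, or 24%, against 4.46% of 27305 genes with a window. Its stricter form TGATGCAA was present in 4 of the 25, against 1.08% of all genes. The palindrome TGACGTCA, a cyclic AMP response element, was present in 1 of the 25, against 2.25% of all genes. Genes with several start sites have more windows, and in single windows the core was present in 6 of 43 member windows and in 3.62% of all 35116 windows. Stretches with a match are shown so that the letters around each motif can be compared, 6 for the C/EBP-ATF core and 1, in PPP1R15A, for the cyclic AMP response element. Each runs 5′ to 3′ on the strand of its gene, with the match in capitals. The start site named is that of the window with the match. ASNS, ATF3, BCAT1, CEBPG and JDP2 also had windows at other start sites without the core. Which start sites these cells use was not tested.

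ASNS, chr7:97872449-97872496, minus strand, match starting 68 bases before the start site: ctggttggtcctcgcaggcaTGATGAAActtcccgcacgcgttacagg
CEBPG, chr19:33374051-33374098, plus strand, match starting 42 bases before the start site: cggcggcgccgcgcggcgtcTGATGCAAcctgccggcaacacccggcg
JDP2, chr14:75427986-75428033, plus strand, match starting 16 bases before the start site: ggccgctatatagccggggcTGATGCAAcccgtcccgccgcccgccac
CHAC1, chr15:40953242-40953289, plus strand, match on the opposite strand starting 209 bases before the start site: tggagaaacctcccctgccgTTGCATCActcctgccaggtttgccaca
BCAT1, chr12:24949122-24949169, minus strand, match starting 48 bases before the start site: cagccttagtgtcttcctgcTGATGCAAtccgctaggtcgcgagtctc
ATF3, chr1:212565196-212565243, plus strand, match starting 191 bases before the start site: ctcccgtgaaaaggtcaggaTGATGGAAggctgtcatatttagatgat
PPP1R15A, chr19:48872343-48872390, plus strand, cyclic AMP response element starting 58 bases before the start site: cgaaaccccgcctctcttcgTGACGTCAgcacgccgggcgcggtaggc

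The ASNS stretch holds the nutrient-sensing element through which amino acid shortage is known to induce asparagine synthetase, and CEBPG and JDP2 carry the strict core closest to their start sites. A match is a description of letters and not of binding. The members with the core in any window ranged widely in their values. Log2 fold changes of EX527 co-culture against co-culture lay between 3.01 for ATF3 and -0.12 for BCAT1.

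The first comparison asked how these genes differ when EX527 is present in the co-culture. In 6 of the 8 transcription factors, all 3 secreted proteins and the regulator TRIB3, both EX527 co-culture libraries lay above both co-culture libraries with means at least 2-fold apart. PHGDH and CBS lay below by that measure, and the other biosynthetic enzymes differed by less than 2-fold. The members together took 0.631% and 0.739% of all reads in EX527 co-culture, 0.433% and 0.418% in co-culture and 0.713% in monoculture. Of the 32 members, 24 had a positive and 8 a negative log2 fold change, with a median of 0.50 against 0.15 over all genes tested. Without EX527 co-culture replicate 1, 29403 genes passed the filter, and these medians were 0.71 and -0.0051. Without replicate 2 instead, 34293 genes passed, and they were 0.31 and 0.16.

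Counts of members past a rule were read against the share of all genes past the same rule. In 10 members the EX527 co-culture libraries lay above both co-culture libraries with a difference of means of at least 2-fold (16.3% of all genes tested), and in 2 members below (9.79%). The edgeR quasi-likelihood test over all 34658 genes called none of the members and none of the other genes at an adjusted p of 0.05 (0%). At an unadjusted p under 0.05 in that test, 14 members were higher (10.0% of genes) and 3 lower (9.29%). The DESeq2 Wald test called 12 members higher (6.38% of the genes it gave an adjusted p) and 2 lower (4.88%). Without EX527 co-culture replicate 1, edgeR called 23 members higher (21.7%) and 5 lower (22.6%). Without replicate 2 instead, it called 17 higher (39.1%) and 11 lower (31.1%). In both of those fits the co-culture pair alone sets the spread and the lone EX527 library is assumed to vary like it. The log2 fold changes of CHAC1, SESN2, DDIT4, GPT2, SHMT2, PYCR1 and BCAT1 differed in sign between these fits.

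**Figure D1:**
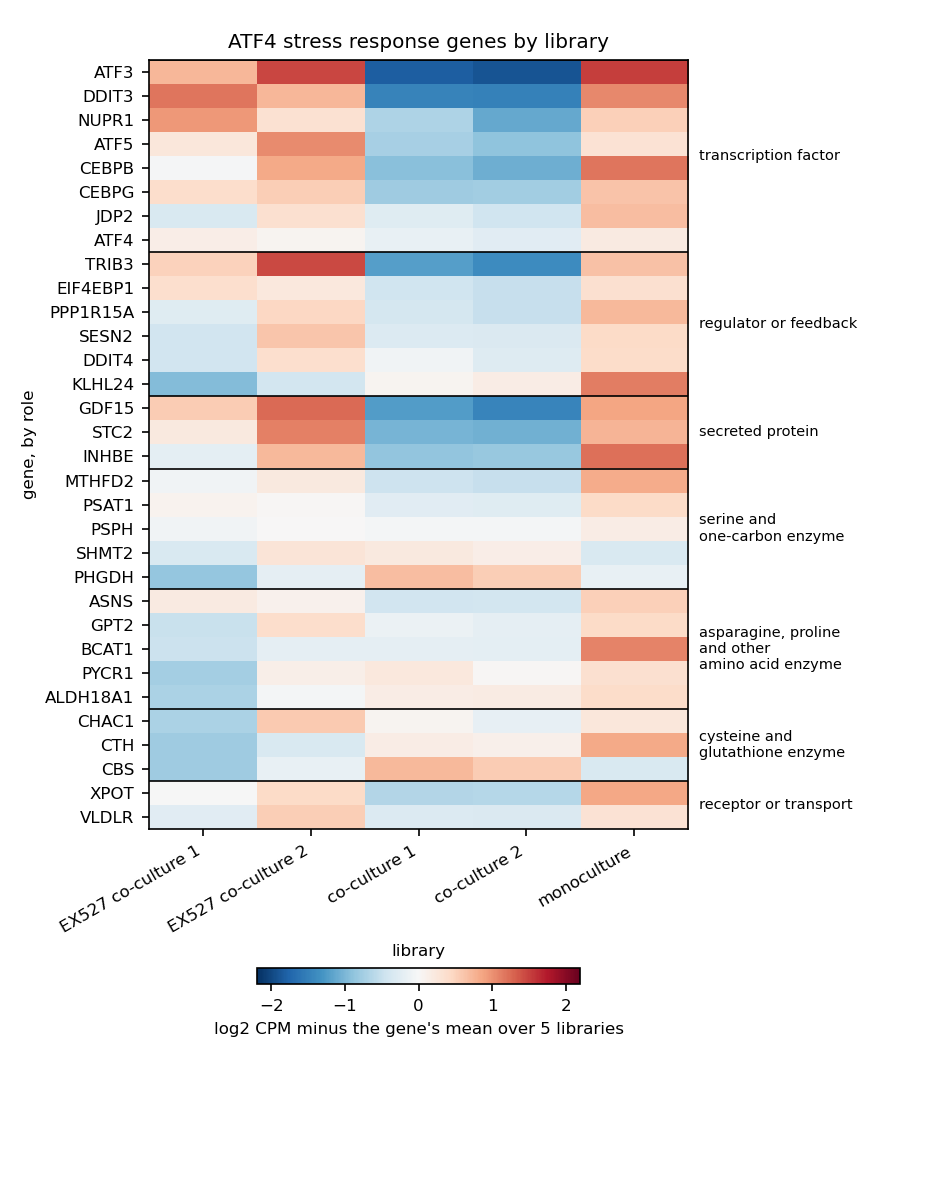
Levels of the 32 members in each library, as log2 CPM minus the mean of the gene over all 5 libraries, with rows grouped by role and columns ordered EX527 co-culture, co-culture, monoculture. Apart from JDP2, the transcription factors and secreted proteins have their lowest values in both co-culture libraries, and PHGDH and CBS have their highest there.

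Among the transcription factors, ATF3, DDIT3, NUPR1, ATF5, CEBPB and CEBPG had all EX527 co-culture libraries above all co-culture libraries by 2-fold or more, and ATF4 by less. ATF4, the central activator, was read at 603 and 568 CPM in EX527 co-culture, at 482 and 457 CPM in co-culture, and monoculture had 623 CPM. Its libraries did not overlap between EX527 co-culture and co-culture, but the difference was small (log2 fold change 0.32, SE 0.17, edgeR adjusted p = 0.347). ATF5, a close relative that is also controlled at translation, was read at 80.6 and 141 CPM in EX527 co-culture, at 41.2 and 37.0 CPM in co-culture, and monoculture had 85.5 CPM. The EX527 libraries of ATF5 differed from each other by more than the co-culture libraries did, yet both lay above them (log2 fold change 1.5, SE 0.32, edgeR adjusted p = 0.137). Some exonic bases of ATF5 are shared with NUP62 on the opposite strand (565 of 2892), so its count is uncertain. NUP62 had values of 45.6 and 90.5 CPM in EX527 co-culture and 94.8 and 85.4 CPM in co-culture. The part of NUP62 reads in the count of ATF5 was not tested.

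ATF3, a repressor and activator induced by many stresses, had the largest fold of the members. It was read at 46.7 and 78.7 CPM in EX527 co-culture, at 8.0 and 7.53 CPM in co-culture, and monoculture had 81.3 CPM. Both co-culture libraries were far below the other 3 libraries, and the fold was 8.06 for EX527 co-culture against co-culture (log2 fold change 3.01, SE 0.34, edgeR adjusted p = 0.0774). DDIT3 encodes CHOP, which turns a prolonged response towards cell death. It was read at 244 and 179 CPM in EX527 co-culture, at 38.8 and 38.7 CPM in co-culture, and monoculture had 225 CPM. Its fold for EX527 co-culture over co-culture was 5.46 (log2 2.45, SE 0.24, edgeR adjusted p = 0.0774), and DDIT3 was one of 6 members read higher in EX527 co-culture replicate 1 than in replicate 2. DDIT3 shares 355 of its 1307 exonic bases with MARS1 on the opposite strand, and the counting is not stated to use strand. Nor is it stated whether a read that overlaps several genes, or maps to several places, was counted more than once. NUP62 and IL4I1, which both overlap ATF5, had close totals over all libraries (18171 and 18268 reads), so what the counts of DDIT3, ATF5 and CBS hold is uncertain. Other members share exonic bases with another gene too. The largest such share was 12.6% in CEBPB, 16.5% in NUPR1, 16.4% in INHBE, 15.6% in PYCR1, 11.6% in MTHFD2 and 49.3% in ASNS. It was smaller in SHMT2, VLDLR, BCAT1 and JDP2, and the same limit applies to all of these counts. MARS1, the methionyl-tRNA synthetase, was read at 526 and 670 CPM in EX527 co-culture and at 436 and 415 CPM in co-culture, a log2 fold change of 0.49 (SE 0.20).

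The C/EBP factors are the partners with which ATF4 binds DNA. CEBPB was read at 70.1 and 128 CPM in EX527 co-culture, at 37.6 and 33.8 CPM in co-culture, and monoculture had 161 CPM (log2 fold change of EX527 co-culture against co-culture 1.47, SE 0.33). CEBPG, which forms heterodimers with ATF4, was read at 126 and 142 CPM in EX527 co-culture, at 56.0 and 56.8 CPM in co-culture, and monoculture had 150 CPM. Its replicates were close in both groups, and the log2 fold change was 1.25 (SE 0.18, edgeR adjusted p = 0.0881). NUPR1, a small chromatin protein induced by stress, had 16 and 10.4 CPM in EX527 co-culture, 5.10 and 3.76 CPM in co-culture and 11.8 CPM in monoculture (log2 fold change 1.58, SE 0.34). JDP2, a repressor of AP-1 sites, had 27.5 and 44.6 CPM in EX527 co-culture, against 29.1 and 25.8 CPM in co-culture. Its libraries overlapped between these groups.

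**Figure D2:**
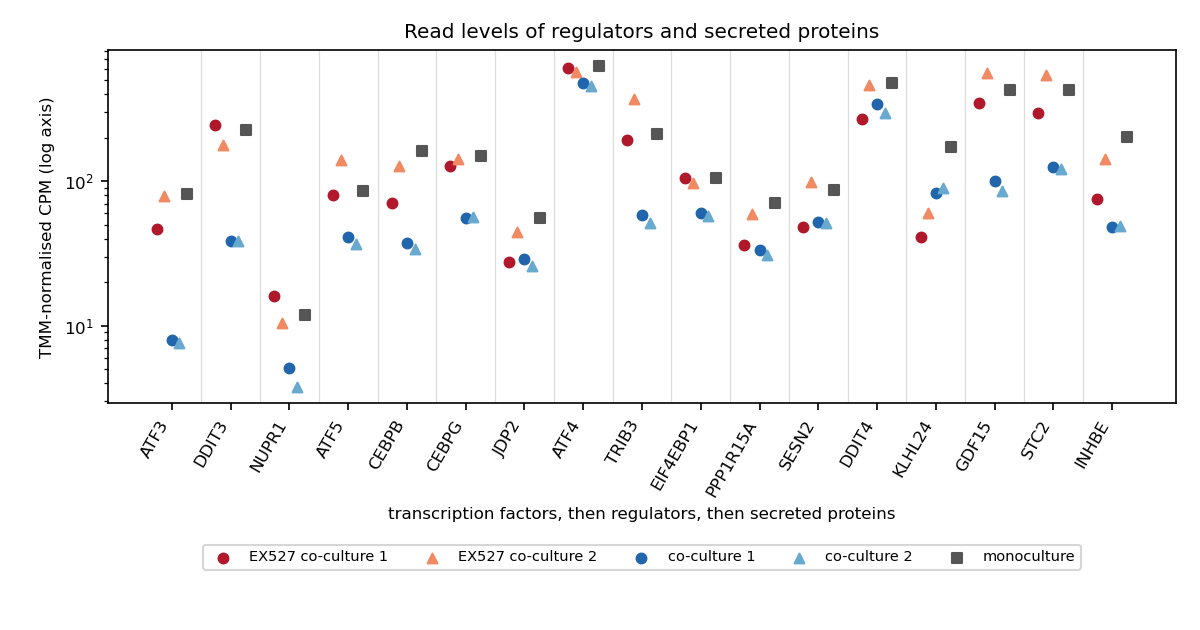
TMM-normalised CPM of transcription factors, regulators and secreted proteins on a log axis, one point per library, with EX527 co-culture at the left, co-culture next and monoculture at the right of each gene. For ATF3 both co-culture points sit near 8 CPM and the other points between 46.7 and 81.3 CPM, whereas for JDP2 and SESN2 the EX527 co-culture and co-culture points overlap.

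Among regulators and feedback proteins, TRIB3 stood apart from the other 5. TRIB3 is a pseudokinase that binds ATF4 and CHOP and dampens their activity. It was read at 193 and 373 CPM in EX527 co-culture, at 58.1 and 51.7 CPM in co-culture, and monoculture had 211 CPM. The fold of EX527 co-culture against co-culture was 5.15 (log2 fold change 2.36, SE 0.37, edgeR adjusted p = 0.0932), although its EX527 replicates differed by -0.95 on the log2 scale, replicate 1 being the lower. PPP1R15A, which encodes GADD34 and directs dephosphorylation of eIF2, had 36.3 and 59.4 CPM in EX527 co-culture, 33.2 and 30.7 CPM in co-culture and 71.2 CPM in monoculture. Both EX527 libraries lay above both co-culture libraries, replicate 1 only narrowly (log2 fold change 0.58, SE 0.29, edgeR adjusted p = 0.324). EIF4EBP1 encodes a repressor of cap-dependent translation that mTORC1 inactivates. It had 105 and 96.4 CPM in EX527 co-culture, 60.3 and 57.8 CPM in co-culture and 104 CPM in monoculture, with tight replicates (log2 fold change 0.77, SE 0.18, edgeR adjusted p = 0.154).

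SESN2 and DDIT4, both inhibitors of mTORC1, overlapped between EX527 co-culture and co-culture. SESN2 had 48.2 and 98.5 CPM in EX527 co-culture and 52.2 and 51.5 CPM in co-culture, so replicate 1 was below and replicate 2 above them. DDIT4 had 268 and 461 CPM in EX527 co-culture and 341 and 296 CPM in co-culture, split in the same way. KLHL24, an adaptor of a ubiquitin ligase, went the other way from most of the group. It had 41.2 and 60.4 CPM in EX527 co-culture, 83.4 and 89.2 CPM in co-culture and 174 CPM in monoculture (log2 fold change of EX527 co-culture against co-culture -0.77, SE 0.25, edgeR adjusted p = 0.218).

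All 3 secreted proteins had both EX527 co-culture libraries above both co-culture libraries, with means at least 2-fold apart. GDF15, a stress cytokine that reduces appetite through a hindbrain receptor, was read at 348 and 563 CPM in EX527 co-culture, at 101 and 86.0 CPM in co-culture, and monoculture had 431 CPM. Its fold was 4.87 (log2 fold change 2.28, SE 0.30, edgeR adjusted p = 0.0826). STC2, a secreted glycoprotein that inhibits the protease PAPP-A, was read at 294 and 544 CPM in EX527 co-culture, at 125 and 121 CPM in co-culture, and monoculture had 428 CPM (log2 fold change 1.77, SE 0.34). INHBE, the activin E subunit, was read at 75.6 and 142 CPM in EX527 co-culture, at 48.0 and 48.8 CPM in co-culture, and monoculture had 202 CPM. Its log2 fold change was 1.17 (SE 0.34, edgeR adjusted p = 0.194), and both EX527 libraries of INHBE stayed below monoculture.

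The enzymes of serine synthesis did not move as 1 group. PHGDH makes the first committed step from a glycolytic intermediate. It was read at 186 and 294 CPM in EX527 co-culture, at 538 and 493 CPM in co-culture, and monoculture had 301 CPM. PHGDH thus had its highest levels in co-culture, with a log2 fold change of -1.10 for EX527 co-culture against co-culture (SE 0.27, edgeR adjusted p = 0.164). PSAT1, the aminotransferase of the next step, had 336 and 321 CPM in EX527 co-culture, 266 and 262 CPM in co-culture and 425 CPM in monoculture (log2 fold change 0.32, SE 0.17, edgeR adjusted p = 0.344). PSPH, the phosphatase of the last step, had 74.3 and 78.8 CPM in EX527 co-culture, 75.6 and 75.9 CPM in co-culture and 87.5 CPM in monoculture. Its log2 fold change was 0.02, with a 95% interval of -0.44 to 0.47, and it was called in neither fit that left out an EX527 library.

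Mitochondrial one-carbon enzymes likewise split. MTHFD2, the folate dehydrogenase of mitochondria, had 315 and 388 CPM in EX527 co-culture, 242 and 235 CPM in co-culture and 588 CPM in monoculture. Both EX527 libraries lay above both co-culture libraries and below monoculture (log2 fold change 0.56 against co-culture, SE 0.20, edgeR adjusted p = 0.233). SHMT2, which splits serine into glycine and a folate-bound carbon, had 450 and 692 CPM in EX527 co-culture, 660 and 629 CPM in co-culture and 451 CPM in monoculture. Its EX527 libraries lay on both sides of the co-culture libraries (log2 fold change -0.18, SE 0.26), and the sign turned with scaling by library size alone.

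Asparagine synthetase, ASNS, was the member of the next group with the clearest separation. It had 234 and 219 CPM in EX527 co-culture, 153 and 154 CPM in co-culture and 292 CPM in monoculture (log2 fold change of EX527 co-culture against co-culture 0.56, SE 0.17, edgeR adjusted p = 0.208). The pseudogene ASNSP1 held 9.74% as many reads as ASNS. A noncoding gene on the same strand also shares 2415 of its 4896 exonic bases, so the count of ASNS is uncertain. The proline enzyme ALDH18A1, which makes the precursor of proline from glutamate, had 151 and 236 CPM in EX527 co-culture, 276 and 277 CPM in co-culture and 323 CPM in monoculture (log2 fold change -0.51, SE 0.27). PYCR1, the mitochondrial reductase of the last step to proline, had 73.7 and 136 CPM in EX527 co-culture and 146 and 126 CPM in co-culture, with overlapping libraries. GPT2, the mitochondrial alanine aminotransferase, had 92.6 and 170 CPM in EX527 co-culture and 120 and 114 CPM in co-culture, again on both sides. BCAT1, the cytosolic aminotransferase of branched-chain amino acids, had 33.4 and 40.2 CPM in EX527 co-culture, 40.4 and 39.7 CPM in co-culture and 97.9 CPM in monoculture. All 4 libraries with adipocytes lay below monoculture for BCAT1.

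In cysteine and glutathione metabolism, CBS and CTH form the transsulfuration route from homocysteine to cysteine. CBS had 68.7 and 106 CPM in EX527 co-culture, 195 and 175 CPM in co-culture and 93.4 CPM in monoculture (log2 fold change of EX527 co-culture against co-culture -1.08, SE 0.27, edgeR adjusted p = 0.164). The near-identical copy CBSL held 94.3% as many reads as CBS and had values of 65.6 and 98.8 CPM in EX527 co-culture and 182 and 167 CPM in co-culture, so reads of these copies cannot be told apart. CTH had 4.41 and 6.05 CPM in EX527 co-culture, 8.56 and 8.25 CPM in co-culture and 13.5 CPM in monoculture (log2 fold change -0.69, SE 0.28). CHAC1, which degrades glutathione and is a CHOP-linked target, had 18.7 and 45.3 CPM in EX527 co-culture, 31.6 and 27.0 CPM in co-culture and 36.4 CPM in monoculture. CHAC1 had the widest gap between EX527 replicates of any member, -1.27 on the log2 scale, and its log2 fold change against co-culture was 0.64 without replicate 1 and -0.60 without replicate 2.

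The last pair serve transport. XPOT exports tRNA from the nucleus. It had 493 and 661 CPM in EX527 co-culture, 317 and 321 CPM in co-culture and 897 CPM in monoculture (log2 fold change of EX527 co-culture against co-culture 0.86, SE 0.22, edgeR adjusted p = 0.168). VLDLR, the receptor for very low density lipoprotein, had 56.8 and 99.1 CPM in EX527 co-culture, 54.8 and 54.6 CPM in co-culture and 84.5 CPM in monoculture. Both EX527 libraries lay above co-culture, replicate 1 by little (log2 fold change 0.51, SE 0.31, edgeR adjusted p = 0.375).

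**Figure D3:**
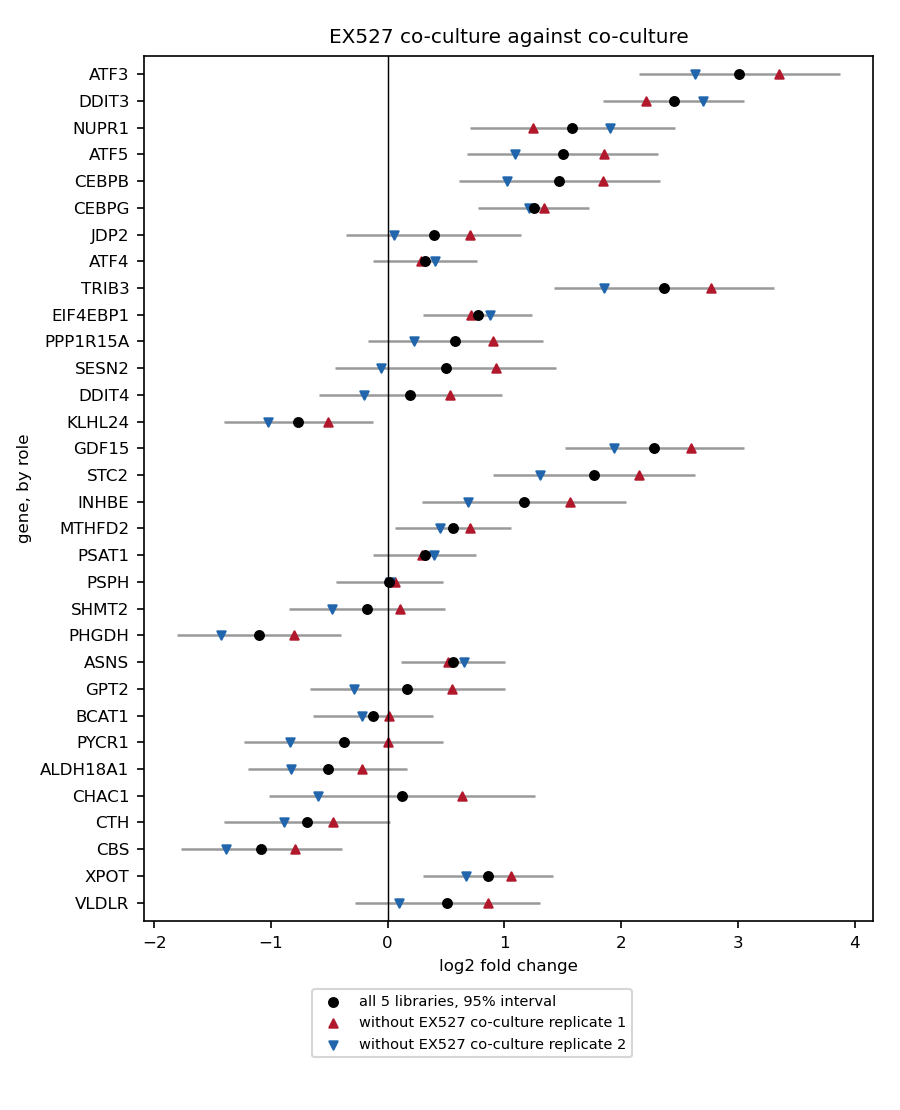
Log2 fold change of each member for EX527 co-culture against co-culture. Black points and bars are the fit of all 5 libraries with its 95% interval, and triangles are the point values without EX527 co-culture replicate 1 or 2. ATF3, DDIT3, TRIB3 and GDF15 lie above 1 in each fit, while CHAC1, SESN2, DDIT4 and GPT2 have triangles on both sides of 0.

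The leading values kept their sign without either EX527 library. Without replicate 1 the log2 fold change was 3.35 for ATF3, 2.21 for DDIT3, 2.77 for TRIB3, 2.60 for GDF15 and 1.34 for CEBPG, and each rose in that edgeR fit (largest adjusted p = 7.3e-55, for CEBPG). PHGDH and CBS fell there, by 0.80 (adjusted p = 6.75e-21) and 0.79 (adjusted p = 4.71e-19) on the log2 scale. Without replicate 2 the values were 2.63 for ATF3, 2.70 for DDIT3, 1.86 for TRIB3, 1.94 for GDF15, 1.21 for CEBPG, -1.42 for PHGDH and -1.38 for CBS. Such small p-values follow the narrow spread of the co-culture pair and not the spread of EX527 co-culture. Leaving out a co-culture library instead gave a median member log2 fold change of 0.51 without replicate 1 and 0.50 without replicate 2. Over all genes tested these medians were 0.15 and 0.16.

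Replicate spread within the EX527 group ran mostly one way among the members. EX527 co-culture replicate 1 was lower than replicate 2 in 26 of them and higher in 6, with a median absolute log2 difference of 0.65 against 0.07 between both co-culture libraries. The exceptions were NUPR1, DDIT3, EIF4EBP1, ASNS, ATF4 and PSAT1. The same split was not counted over all genes, so it is not shown to be particular to the members. Differences between the EX527 replicates had an SD of 0.451 over the members, against 0.605 over well-read genes. TMM scaling lowered replicate 1 by more than the other libraries, through a factor of 1.21 against 0.917 to 1.03 elsewhere. With scaling by library size alone, the log2 fold changes of all genes had a median of 0.42, a shift of 0.27, and those of the members had a median of 0.75. Under that scaling 0 members were separated downward by 2-fold, and the share of all genes was not counted.

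The second comparison set co-culture without a named inhibitor against the single monoculture library, which may also differ in culture time and membrane. Nearly all members were read lower in co-culture. Of the 32 members, 29 had a negative and 3 a positive log2 fold change, with a median of -0.97 against 0.05 over all genes tested. The co-culture libraries lay at least 2-fold below monoculture in 16 members (14.1% of all genes tested) and at least 2-fold above it in 0 (15.8%). With n = 1 in monoculture, the spread of this comparison comes from the co-culture groups.

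No member and no other gene was called by edgeR over all genes (0%). At an unadjusted p under 0.05, 19 members were lower (8.40% of genes) and 1 higher (7.55%). DESeq2 called 16 members lower (7.59%) and 0 higher (4.65%). Without EX527 co-culture replicate 1, edgeR called 29 members lower (27.1%) and 3 higher (26.9%), which is every member. This comparison shares the co-culture libraries with the first one, so opposite signs in both are not independent, and the values are given side by side only.

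ATF3 had the largest difference of the members, with co-culture 10.5-fold below monoculture (log2 fold change -3.39, SE 0.37, edgeR adjusted p = 0.118), beside 3.01 for EX527 co-culture against co-culture. DDIT3 had -2.54 (SE 0.26) beside 2.45, GDF15 -2.21 (SE 0.34) beside 2.28 and TRIB3 -1.94 (SE 0.41) beside 2.36. These 4 genes encode a stress repressor, CHOP, a cytokine and a feedback pseudokinase. CEBPB had -2.17 (SE 0.39) beside 1.47, INHBE -2.06 (SE 0.39) beside 1.17 and XPOT -1.49 (SE 0.25) beside 0.86, and both EX527 co-culture libraries of these genes lay under monoculture. MTHFD2 had -1.30 (SE 0.23) beside 0.56 and BCAT1 -1.29 (SE 0.23) beside -0.12. ATF4 itself had -0.41 (SE 0.21, edgeR adjusted p = 0.447) beside 0.32.

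The 3 members with positive values were enzymes. CBS had a log2 fold change of 0.99 for co-culture against monoculture (SE 0.34, edgeR adjusted p = 0.267), PHGDH 0.78 (SE 0.34, edgeR adjusted p = 0.368) and SHMT2 0.52 (SE 0.32, edgeR adjusted p = 0.549). They make, in turn, cystathionine, the first intermediate of serine synthesis, and glycine. PSAT1 and ASNS had log2 fold changes of -0.69 (SE 0.20) and -0.93 (SE 0.21). Those of ALDH18A1, PYCR1 and PSPH were smaller in size, at -0.23 (SE 0.32), -0.22 (SE 0.40) and -0.21 (SE 0.22). Each of these enzymes had both co-culture libraries below monoculture, as did 14113 of all 34658 genes tested.

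The third comparison set EX527 co-culture against monoculture. Most members had values under monoculture by less than 2-fold. The median log2 fold change was -0.35 against 0.21 over all genes tested, with 27 members negative and 5 positive. The EX527 co-culture libraries lay at least 2-fold below monoculture in 3 members, KLHL24, BCAT1 and CTH (5.95% of all genes tested), and at least 2-fold above it in 0 (17.5%). The edgeR test called none of them and no other gene (0%), with 4 members lower (5.09%) and 0 higher (2.28%) at an unadjusted p under 0.05. DESeq2 called 2 lower (0.252%) and 0 higher (0.126%). Without EX527 co-culture replicate 1, edgeR called 14 lower (19.1%) and 5 higher (14.7%). Without replicate 2 instead, 25 were called lower (28.8%) and 1 higher (33.4%).

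On the log2 scale the difference was -1.78 for KLHL24 (SE 0.29), -1.41 for BCAT1 (SE 0.23) and -1.38 for CTH (SE 0.32), each with an edgeR adjusted p of 0.614. These are a ubiquitin ligase adaptor, a branched-chain aminotransferase and the second enzyme of transsulfuration. For the genes with the largest folds in the first comparison the interval of the difference from monoculture included 0. It ran from -1.30 to 0.54 for ATF3, from -0.78 to 0.60 for DDIT3, from -0.82 to 0.98 for GDF15 and from -0.69 to 1.53 for TRIB3 on the log2 scale. Intervals of that width do not show that EX527 co-culture and monoculture were alike.

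**Figure D4:**
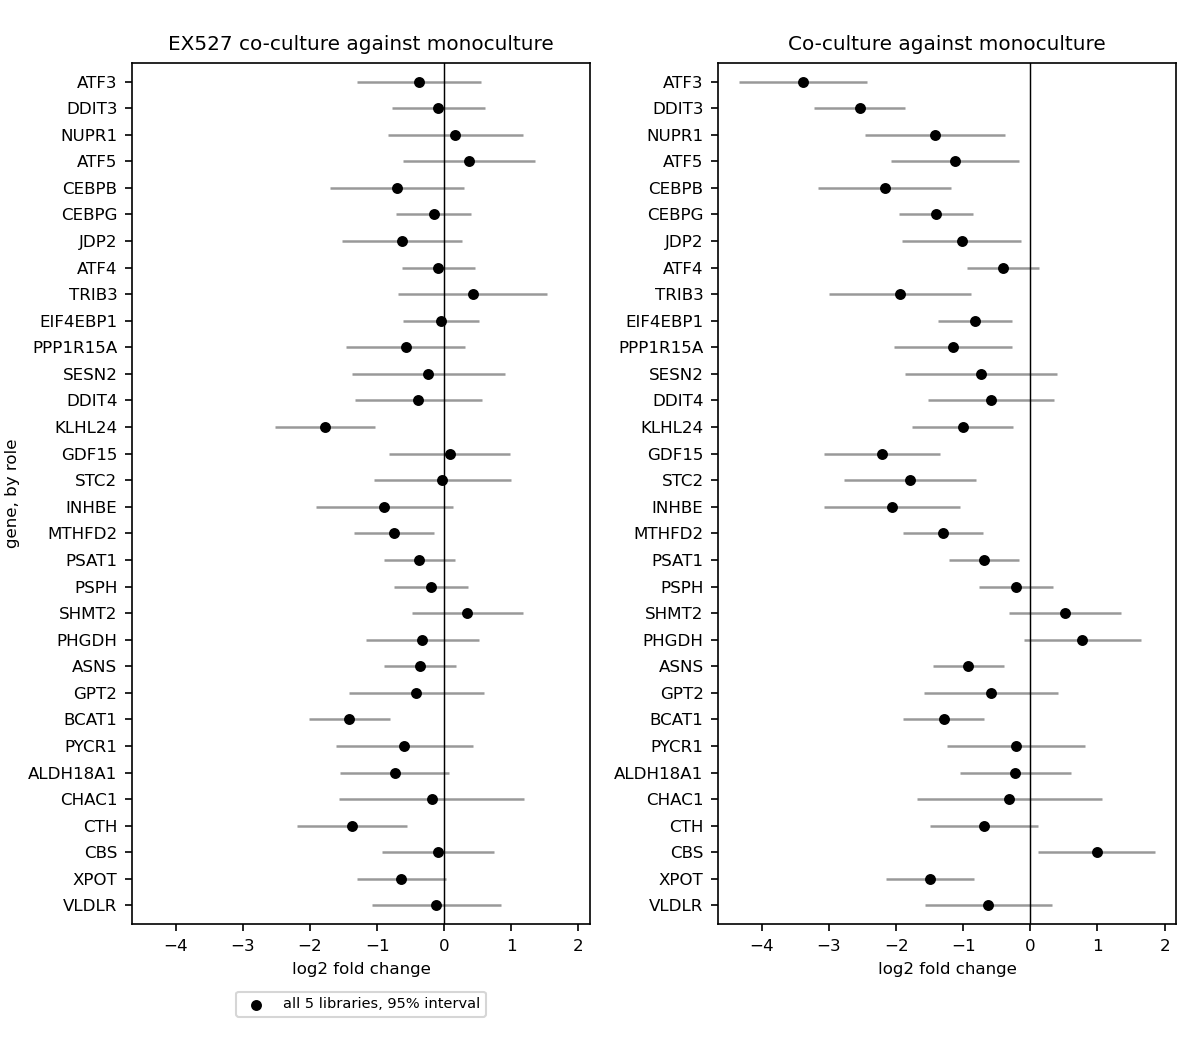
Log2 fold changes of the members against monoculture, for EX527 co-culture at the left and for co-culture at the right, with 95% intervals from the fit of all 5 libraries. At the right 29 members lie below 0 and CBS, PHGDH and SHMT2 above it, while at the left most intervals include 0.

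Compared per kilobase of annotated exon, as TMM-normalised CPM divided by kilobases (RPKM) and averaged within a group, ATF4 was the most abundant member in each group, at 224 RPKM in EX527 co-culture, 180 RPKM in co-culture and 238 RPKM in monoculture. GDF15 ranked 2 of 32 in EX527 co-culture, at 218 RPKM, and 9 in co-culture, at 44.8 RPKM. DDIT3 ranked 4 in EX527 co-culture, at 162 RPKM, and 12 in co-culture, at 29.6 RPKM. ATF3 stayed at a low level even where its fold was high, at 15.7 RPKM in EX527 co-culture and 1.94 RPKM in co-culture. Serine and proline enzymes held high ranks in co-culture, with SHMT2 at 3, PSAT1 at 4, ALDH18A1 at 5 and PHGDH at 7. Lengths come from GENCODE 44 and count every annotated exon, so levels of genes with long rare exons are understated.

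Upstream of eIF2 stand its kinases and their activators. Of the 9 genes in that list, 0 were separated by 2-fold or more between EX527 co-culture and co-culture (16.3% of all genes upward, 9.79% downward), and the median log2 fold change was -0.24. EIF2AK3, which encodes the endoplasmic reticulum kinase PERK, was read at 41.5 and 63.2 CPM in EX527 co-culture, at 37.8 and 33.6 CPM in co-culture, and monoculture had 95.2 CPM (log2 fold change of EX527 co-culture against co-culture 0.55, SE 0.27). EIF2AK4, the amino acid sensor GCN2, had a value of -0.25 (SE 0.29), EIF2AK1, the heme-regulated kinase, of -0.36 (SE 0.26), and EIF2AK2, the kinase PKR, of -0.40 (SE 0.24). DELE1, which relays mitochondrial stress to the heme-regulated kinase, had -0.66 (SE 0.29), and PRKRA, an activator of PKR, 0.45 (SE 0.19). Among 12 genes of eIF2, its exchange factor eIF2B and the eIF2 phosphatase, 0 were separated by 2-fold. EIF2S2, the beta subunit of eIF2, had 0.93 (SE 0.31), EIF2B2 and EIF2S1 had 0.54 (SE 0.22) and 0.52 (SE 0.17), and PPP1CA, a catalytic subunit of protein phosphatase 1, had -0.90 (SE 0.23).

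The other arms of the unfolded protein response sense misfolded proteins in the endoplasmic reticulum. Of 15 genes in that list, 4 were separated upward by 2-fold or more between EX527 co-culture and co-culture (16.3% of all genes) and 2 downward (9.79%), and the median log2 fold change was 0.19, against 0.15 over all genes. The upward genes are named here by the size of their fold and do not stand for the list. HSPA5, the chaperone BiP, was read at 1826 and 2101 CPM in EX527 co-culture, at 681 and 666 CPM in co-culture, and monoculture had 5529 CPM (log2 fold change of EX527 co-culture against co-culture 1.54, SE 0.19, edgeR adjusted p = 0.0795). DNAJB9, HERPUD1 and ERN1 had log2 fold changes of 1.75 (SE 0.22), 1.30 (SE 0.20) and 1.2 (SE 0.28). XBP1, the transcription factor of the IRE1 arm, had -0.50 (SE 0.20). BiP thus lay below monoculture in both EX527 co-culture libraries, whereas DDIT3 had one EX527 library on each side of monoculture.

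A further 45 genes reported as targets of ATF4 or CHOP had a median log2 fold change of 0.23 for EX527 co-culture against co-culture and of -0.74 for co-culture against monoculture. Over all genes these medians were 0.15 and 0.05. Between EX527 co-culture and co-culture 10 of the 45 were separated upward by 2-fold or more (16.3% of all genes) and 0 downward (9.79%). LAMP3, a lysosomal membrane protein, was read at 117 and 167 CPM in EX527 co-culture, at 7.82 and 7.23 CPM in co-culture, and monoculture had 166 CPM. NIBAN1, a stress-induced regulator of translation, was read at 172 and 216 CPM in EX527 co-culture, at 19.4 and 18.1 CPM in co-culture, and monoculture had 235 CPM. Their log2 fold changes of EX527 co-culture against co-culture, 4.23 (SE 0.28) and 3.37 (SE 0.23), were larger than the 3.01 of ATF3. The same value was 2.08 for NDRG1 (SE 0.42) and 1.59 for VEGFA (SE 0.25), and both of these genes are also induced by hypoxia.

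Paralogues of the members were set beside them because some share a reaction but have no or a weaker reported link to ATF4. Of 26 tested, 5 were separated upward by 2-fold or more between EX527 co-culture and co-culture and 2 downward, shares near those of all genes (16.3% and 9.79%). Their median log2 fold change was 0.16, against 0.15 over all genes. The cytosolic SHMT1 was read at 32.7 and 35.6 CPM in EX527 co-culture, at 71.1 and 69.5 CPM in co-culture, and monoculture had 32.7 CPM (log2 fold change -1.04, SE 0.19). MTHFD1, the cytosolic folate enzyme, had -0.90 (SE 0.28), beside 0.56 for the mitochondrial MTHFD2. PYCR3, a cytosolic proline enzyme, had -1.29 (SE 0.30). CEBPD, a C/EBP factor of inflammation, had 1.70 (SE 0.37), near the 1.47 of CEBPB. The pairing was made after values were seen, and differences between a member and its paralogue were not tested.

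**Figure D5:**
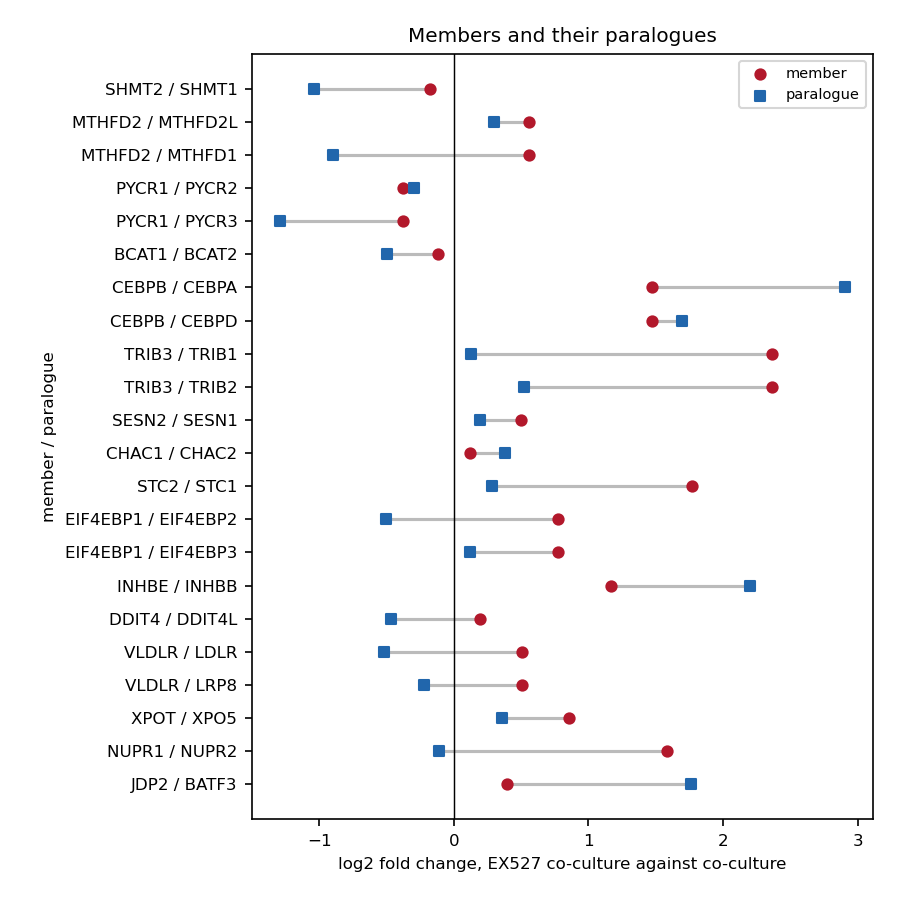
Log2 fold change of EX527 co-culture against co-culture for members (circles) and their paralogues (squares), joined by a line. MTHFD2 and MTHFD1 lie on opposite sides of 0, at 0.56 and -0.90, whereas CEBPB and CEBPD lie close, at 1.47 and 1.70.

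Another list held 19 genes, most of which break down serine, glycine, proline or asparagine or link them to glutamate and aspartate. Among the 19 was PSPHP1, a pseudogene of the member PSPH. Of the 19, 1 was separated upward by 2-fold or more between EX527 co-culture and co-culture (16.3% of all genes) and 4 downward (9.79%). ALDH4A1 and PRODH, which degrade proline, had log2 fold changes of -2.32 (SE 0.45) and -1.42 (SE 0.42). ALDH4A1 was read at 3.73 and 9.52 CPM in EX527 co-culture, at 34.6 and 30.5 CPM in co-culture, and monoculture had 5.39 CPM. GLUL, glutamine synthetase, had -1.23 (SE 0.28), and GLDC, which cleaves glycine, -1.05 (SE 0.22). None of these genes outside the member list was called by edgeR over all genes with all 5 libraries.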

How the data were processed

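Per the series' design text, reads not from rRNA were aligned with STAR 2 to GRCh38.p7. The submitters' processing notes name fastp, featureCounts and DESeq2 without versions. The authors deposited raw counts per gene, used here as deposited. Neither the annotation nor the strand setting is given in the sources used here.

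The test over all genes used edgeR 4.0.16 under R 4.3.3: filterByExpr (minimum count 10), TMM scaling, 1 coefficient per group over all 5 libraries (residual df 2), quasi-likelihood F-tests with the edgeR 4 dispersion estimate, and Benjamini-Hochberg adjustment at 0.05. CPM are TMM-normalised, and log2 CPM used a prior count of 2. Each SE is the absolute log2 fold change divided by the square root of the F statistic of its test. Intervals are 95% intervals of the log2 fold change, built from this SE and the t distribution. DESeq2 1.42.0 and limma 3.58.1 were alternatives. The scripts were tested on simulated data. Replicates differed by more than counting noise, with a chi-square per gene of 5.95 in co-culture and 152 in EX527 co-culture. Preparation alone can cause such differences, so replicates are treated as 2 libraries per group and are not shown to be separate cultures. Intervals cover no PCR duplication.

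The members and lists were chosen with earlier results of these data known, so lists have counts and medians but no test. All members are described. Of each other list up to 4 genes are named, chosen by the largest fold of EX527 co-culture over co-culture among genes with mean log2 CPM from 2 upward and separate libraries. The kinases, HSPA5, XBP1 and SIRT1 are named in any case. Gene positions and lengths come from GENCODE 44, promoter windows from RefSeq.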

Additional observations from a re-analysis of the deposited data

How the results depend on the processing

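Each member had 183 reads or more in every library. The calls changed with the test and with the libraries that set the spread. The common dispersion, the spread edgeR estimates between replicates, was 0.264 with all 5 libraries. It was 0.0043 without EX527 co-culture replicate 1, 0.0045 without replicate 2 and 0.456 without either co-culture library. Why the EX527 pair spread more was not tested. Of 992 member folds recomputed under an alternative, 761 kept their direction and their side of the threshold, 200 kept their direction and became called, and 31 turned sign.

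The older dispersion estimate called 21 genes for EX527 co-culture against co-culture. DESeq2 called 3296 genes and 14 members in that comparison, 2432 genes and 16 members for co-culture against monoculture, and 75 genes and 2 members for EX527 co-culture against monoculture. Scaling by library size alone left 0 members separated downward by 2-fold for EX527 co-culture against co-culture. The share of all genes was not counted under that scaling, which shifted the median of all genes upward by 0.27.

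Leaving out each replicate in turn gave 0 to 24078 called genes and 0 to 28 called members for EX527 co-culture against co-culture, 0 to 15861 genes and 0 to 32 members for co-culture against monoculture, and 0 to 21330 genes and 0 to 26 members for EX527 co-culture against monoculture. The count of 0 came from leaving out either co-culture library, which leaves the EX527 pair to set the spread. Member medians ran from 0.31 to 0.71, from -1.02 to -0.93 and from -0.74 to -0.18 in these comparisons. The counts that follow have no shares of all genes beside them, which were not computed for these settings. A group left with 1 library also separates more easily, so these counts do not show a trait of the members. Members separated by 2-fold numbered 9 to 11 upward and 0 to 3 downward, 0 to 1 upward and 15 to 16 downward, and 0 upward and 3 to 8 downward.

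With limma-voom the log2 fold change of CHAC1 was -0.013 for EX527 co-culture against co-culture. With library size alone it was 0.077 for SHMT2 and 0.15 for BCAT1 there. Against monoculture it was then 0.17 for ATF4, 0.18 for DDIT3, 0.091 for CEBPG, 0.021 for CHAC1, 0.059 for PSPH, 0.11 for VLDLR, 0.19 for STC2, 0.14 for CBS and 0.21 for EIF4EBP1. On leaving out a replicate, values for EX527 co-culture against co-culture ran from -0.60 to 0.64 for CHAC1, from -0.059 to 0.93 for SESN2, from -0.21 to 0.54 for DDIT4, from -0.29 to 0.55 for GPT2, from -0.47 to 0.11 for SHMT2, from -0.84 to 0.0048 for PYCR1 and from -0.22 to 0.014 for BCAT1. Against monoculture EX527 co-culture ran from -0.084 to 0.67 for ATF5, from -0.44 to 0.15 for CBS, from -0.95 to 0.27 for CHAC1, from -0.37 to 0.12 for DDIT3, from -0.16 to 0.014 for EIF4EBP1, from -0.31 to 0.34 for GDF15, from -0.23 to 0.44 for NUPR1, from -0.84 to 0.15 for SESN2, from -0.0024 to 0.58 for SHMT2, from -0.54 to 0.31 for STC2, from -0.13 to 0.78 for TRIB3 and from -0.57 to 0.19 for VLDLR.

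The labels give both co-culture groups replicate numbers 1 and 2 without saying that a number marks a shared culture or day. With the replicate number as a block over these 4 libraries, edgeR called 867 genes, 368 higher and 499 lower, and 8 members, all 8 higher. Deviations of same-numbered libraries were correlated at -0.36 over well-read genes. With the numbers crossed, a choice made after seeing the data, the block fit called 3382 genes, 1885 higher and 1497 lower. It called 11 members, 10 higher and 1 lower. Shares of the genes tested were not computed for either block fit, so these member counts cannot be read against them. The counts of separated members under other scalings and without single libraries were also added after seeing the data.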
